A study of Homo sapiens with 120 samples.

Results

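Cytochrome P450 enzymes are heme proteins that insert an oxygen atom into fatty acids, sterols, steroid hormones, vitamins, drugs and other foreign chemicals. In the adult liver, members of families 1 to 3 carry out most of the oxidation of drugs, under the control of receptors such as the aryl hydrocarbon receptor, PXR and CAR, while other members make bile acids, cholesterol and signalling lipids. Most family members draw electrons from the reductase POR in the endoplasmic reticulum, and the mitochondrial members from the ferredoxin FDX1. The family was examined here in HepG2, a human hepatocellular carcinoma line, after exposure to nanoparticles of titanium dioxide or cerium dioxide. Members were all genes whose symbol is CYP followed by a digit, without the 4 symbols of family pseudogenes that end in P. They numbered 54 of 20046 genes: 53 P450 genes (among them CYP2D7, annotated as a transcribed pseudogene) and the antisense RNA gene CYP1B1-AS1. A few family members are not analysed here.

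Cultures of 1 cell line were plated at 40000 cells per cm2, left for 48 h and exposed for 72 h to a particle suspension with a dry particle size of 22 to 214 nm. Controls (n = 8 arrays) received no particles. The TiO2 materials were A (Degussa), H (Mknano) and I (Acros), and the CeO2 materials were B and M (Nano Amor) and C, D and L (Alfa Aesar). Each was given at 0.3 µg/mL (n = 4 arrays per material), 3 µg/mL (n = 5, and n = 4 for M) and 30 µg/mL (n = 5). The series text speaks of biological replicates in separate flasks but does not say whether flasks came from separate thaws or days, so p-values measure the spread between flasks. RNA was read on Illumina HT-12 v4 bead arrays, 119 of which had an unambiguous group, and their number limits the precision. Values below are log2 intensity of the brightest probe of a gene, and a change is a difference of group means on that scale with its SE. A change passed the test where limma's p, adjusted over all 20046 genes within a comparison, was under 0.05. All arrays share a median of 98.4 intensity units (6.62 on the log2 scale), so a change is relative to the rest of its array.

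All 8 hepatocyte markers checked (such as ALB and APOB) lay at least 0.5 above the array median, and their summed intensity ran from 71800 to 84300 over the groups. Of markers of other cell types, 0 of 4 for endothelium, 1 of 6 for stellate cells, 3 of 4 for bile duct and 3 of 5 for leukocytes did so, the last including the secreted lysozyme gene LYZ. LYZ passed as lower in 7 of 24 comparisons and fell by 1.75 with L at 0.3 µg/mL, and the fibroblast marker COL1A1 rose by 0.85 with M at 30 µg/mL (limma), whose part in the results on P450 genes was not tested. In RNA of whole cultures, fewer cells of a type and less RNA per cell cannot be told apart. Along the leading axis of variation (38.1% of the variance), 9 arrays separated from all others, and they were neighbours in the order of deposit. They were replicate 3 of I and of L at 0.3 µg/mL, replicate 4 of I at 3 µg/mL and, at 30 µg/mL, replicate 3 of A, replicates 1 and 2 of H, replicate 1 of L and replicates 3 and 4 of M. Results that rest on them are given with and without them. This set was chosen after the data were seen. Of all genes, 27.1% lay on the same side of their group's other arrays in all 9.

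Windows of 250 bases at the start of 4 members are printed because those are the genes the results turn on or, for CYP1A1, the standard readout of the aryl hydrocarbon receptor. They are from RefSeq (GRCh38.p14), read 5′ to 3′ along each gene: CYP1A1 from the minus strand at chr15:74725529-74725778, and from the plus strand CYP2S1 at chr19:41192969-41193218, CYP4F3 at chr19:15641062-15641311 and CYP2W1 at chr7:982931-983180. The CYP4F3 window lies inside the gene's annotated span (chr19:15640897-15662825), so it does not precede the outermost start of that gene. The other windows end where the annotated gene begins. Capitals mark 3 motifs searched on both strands. The core of the xenobiotic response element, at which the aryl hydrocarbon receptor is known to bind, was spelled GCGTG. For the box that positions the start of transcription the letters were TATAAA. The GC box, a site of Sp1 proteins, was spelled GGGCGG. In these windows no match overlapped another.
CYP1A1: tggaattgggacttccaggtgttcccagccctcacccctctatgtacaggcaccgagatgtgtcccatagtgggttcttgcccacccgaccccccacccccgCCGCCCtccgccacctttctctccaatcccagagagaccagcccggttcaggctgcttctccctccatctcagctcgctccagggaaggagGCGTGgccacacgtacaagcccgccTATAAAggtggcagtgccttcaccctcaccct
CYP2S1: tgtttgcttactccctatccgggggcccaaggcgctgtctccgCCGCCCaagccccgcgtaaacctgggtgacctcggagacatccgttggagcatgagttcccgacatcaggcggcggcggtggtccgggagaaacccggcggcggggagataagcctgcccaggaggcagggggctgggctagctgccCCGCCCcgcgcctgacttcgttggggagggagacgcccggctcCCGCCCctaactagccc
CYP4F3: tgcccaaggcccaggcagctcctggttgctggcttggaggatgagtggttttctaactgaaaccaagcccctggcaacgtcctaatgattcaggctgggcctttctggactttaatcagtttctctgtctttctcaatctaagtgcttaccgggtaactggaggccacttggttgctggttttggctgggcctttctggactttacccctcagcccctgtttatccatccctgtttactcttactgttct
CYP2W1: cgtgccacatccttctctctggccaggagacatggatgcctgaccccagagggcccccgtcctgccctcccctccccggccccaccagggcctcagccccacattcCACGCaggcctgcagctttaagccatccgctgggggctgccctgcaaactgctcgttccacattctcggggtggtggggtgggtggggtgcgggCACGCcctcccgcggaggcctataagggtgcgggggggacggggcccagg
CYP1A1 holds 1 GCGTG at position -57 and 1 TATAAA at position -32 from the start, CYP2S1 holds 3 GGGCGG and 0 GCGTG, CYP2W1 holds 2 GCGTG, and CYP4F3 holds 0 of the 3 motifs in this window. Promoters were matched for 39 of the 54 members. GCGTG was found in 10 of the 39 and in 31.9% of 27305 promoters, TATAAA in 14 of the 39 and in 11.1%, and GGGCGG in 16 of the 39 and in 42.3%. A match is a description of letters and no evidence of binding.

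Most of the family was near the array median in every group. With the level taken as the mean over the 25 group means, 44 of 54 members lay under 0.5 above the array median, 28 of them below it, and 10 (18.5%) lay 0.5 or more above, against 36.9% of all genes. With a margin of 1 in place of 0.5, 48 members were near the median. The largest spread of group means among the 44 was 0.4, and at 30 µg/mL none of them moved from control by more than 0.18. Detection p-values were not used, so whether these 44 transcripts were above background was not tested.

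The drug-metabolising members were nearly all near the median. CYP1A1, CYP1A2 and CYP1B1, the classic targets of the aryl hydrocarbon receptor, had levels of 6.63, 6.48 and 6.54. In the controls CYP1A1 ran from 6.60 to 6.72 with a median of 6.65, and its group means over the 24 exposures differed from control by -0.1 to 0.05. CYP3A4, the main drug oxidase of adult liver, had a level of 6.50 and group means between 6.45 and 6.55, and CYP3A7, its fetal counterpart, had a level of 6.88. CYP2A6 (6.45), CYP2B6 (6.54), CYP2C8 (6.51), CYP2D6 (6.66) and CYP2E1 (6.58), which oxidise nicotine, bupropion, paclitaxel, many antidepressants and ethanol in that order, were as close to the median. These 10 genes passed limma's test in 0 of 240 combinations with an exposure, where 1.26% passed among all genes as near the median. At an unadjusted p under 0.05 there were 16. The 10 were chosen with earlier results of these data known, so their 0 is a description. CYP3A5 and CYP3A43, not among these 10, passed once each. CYP3A5 (6.72) rose by 0.12 ± 0.04 with L at 0.3 µg/mL (adjusted p = 0.0444, limma) and CYP3A43 (6.59) by 0.09 ± 0.03 with L at 30 µg/mL (adjusted p = 0.0468). With the mean of its probes CYP3A43 changed by 0.04 (adjusted p = 0.3). The call of CYP3A5 was lost in 7 of 13 settings that leave arrays out (largest adjusted p = 0.191) and that of CYP3A43 in 9 of 13 (0.174).

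Near the median as well were the enzymes of bile acid synthesis CYP7A1 (6.48, the rate-limiting step), CYP8B1 (6.63), CYP7B1 (6.65), CYP39A1 (6.56) and the brain cholesterol hydroxylase CYP46A1 (6.55). The same held for the steroid hormone enzymes CYP11A1 (6.83), CYP17A1 (6.50) and CYP19A1 (6.68), the retinoic acid hydroxylase CYP26A1 (6.58), the vitamin D 25-hydroxylase CYP2R1 (6.55) and the fatty acid and vitamin K hydroxylase CYP4F2 (6.69). CYP51A1, the lanosterol demethylase of cholesterol synthesis, had the highest level among the 44 at 6.94. Members just inside the margin were CYP51A1, CYP4V2 (6.93) and CYP3A7, and just outside it CYP2S1 (7.15) and CYP4F11 (7.26). CYP2S1 passed the margin of 7.12 only through M at 30 µg/mL, the group where it was highest: without that group its level was 7.11, and its control mean was 7.07. The other 9 stayed above the margin without their highest group.

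**Figure D1:**
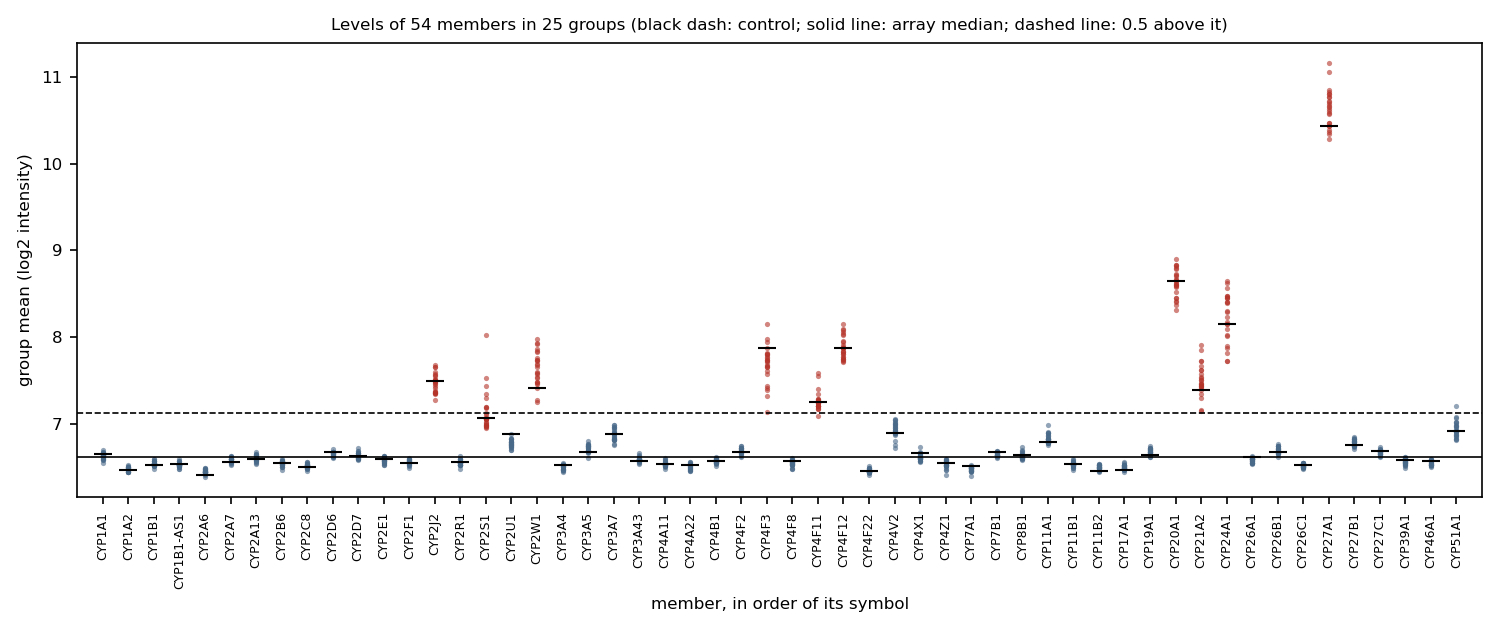
Mean log2 intensity of each of the 54 members (x axis, in order of symbol) in each of 25 groups (points), with the control as a black dash, the array median as a solid line and 0.5 above it as a dashed line. The 10 red members lie 0.5 or more above the median on average, and the 44 blue ones lie near it.

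The 10 members above the margin came from several branches of the family. CYP27A1, the mitochondrial sterol 27-hydroxylase of bile acid synthesis, had a level of 10.64. CYP20A1, an enzyme whose substrate is poorly known, had a level of 8.63, and CYP24A1, the vitamin D 24-hydroxylase, one of 8.23. The fatty acid and eicosanoid hydroxylases CYP4F12 (7.88), CYP4F3 (7.69) and CYP4F11 (7.26) and the arachidonic acid epoxygenase CYP2J2 (7.47) followed on their own probes. The others were CYP2W1 (7.64), known from fetal gut and colon tumours, CYP21A2 (7.51), the steroid hydroxylase that the adrenal cortex needs for cortisol and aldosterone, and CYP2S1 (7.15), an epithelial enzyme known to be inducible by dioxin. These values come from different probes and set no order between genes. CYP21A2 has a near-identical pseudogene and CYP4F3 has close relatives in its family, and cross-hybridisation of their probes was not checked.

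Against control, 35 combinations of member and exposure passed the test, where 3.48% of all combinations of gene and exposure did. At 30 µg/mL the counts were 6 of 54 members with M (11.1%, against 17.4% of all genes), 5 with L (9.26%, against 6.9%), 2 with I (3.7%, against 3.92%), 2 with H (3.7%, against 9.46%) and 1 with A (1.85%, against 8.51%). At 3 µg/mL 5 members passed with I (9.26%, against 7.72% of all genes), 2 with L (3.7%, against 4.06%) and 1 with M (1.85%, against 0.958%). At 0.3 µg/mL 10 passed with L (18.5%, against 12.2%) and 1 with I (1.85%, against 5.57%). The members' share was above the background with L at 0.3 and 30 µg/mL and with I and M at 3 µg/mL, and below it in the other 6 of these comparisons. No member passed with B, C or D at any concentration, where limma called 0% to 0.02% of all genes at 0.3 µg/mL, 0.00499% to 0.015% at 3 µg/mL and 0.743% (B), 0.0649% (C) and 0.015% (D) at 30 µg/mL. The count was 0 as well with A at 0.3 (0.175%) and 3 µg/mL (4.39%), H at 0.3 (0.015%) and 3 µg/mL (1.37%) and M at 0.3 µg/mL (0%). At an unadjusted p under 0.05, 2 to 8 members passed in each of these 14 comparisons. The comparisons with control share the same 8 control arrays.

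**Figure D2:**
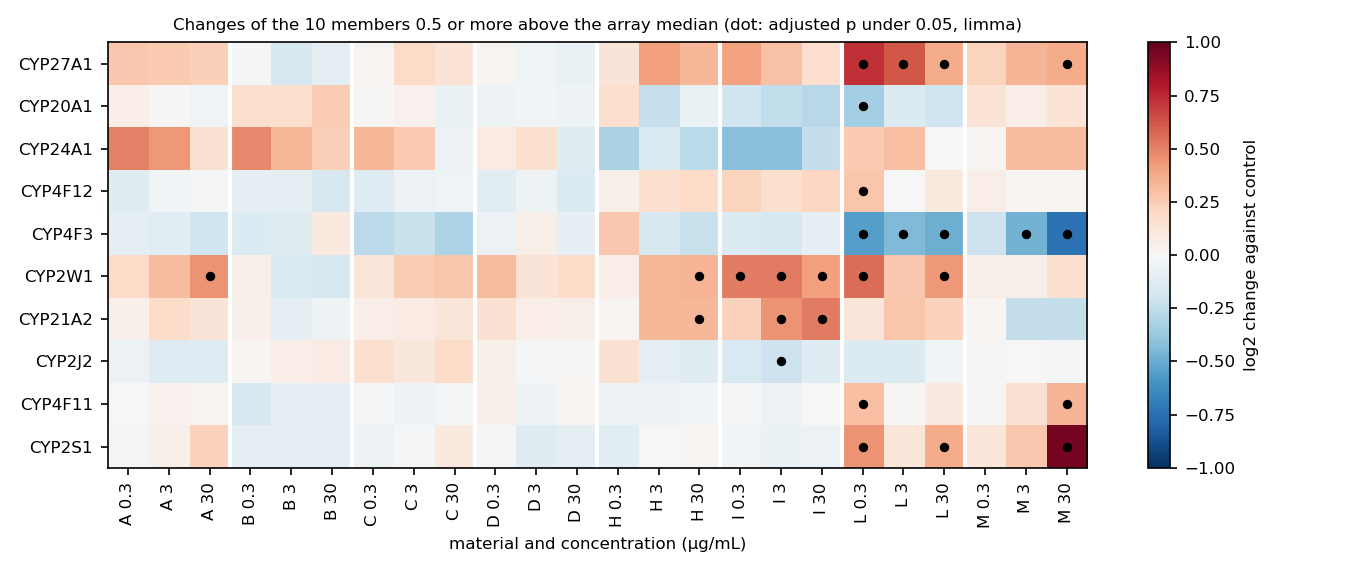
Log2 change against control (colour) of the 10 members above the margin (rows) with each material and concentration (columns), and black dots for an adjusted p under 0.05. The dots gather in the columns of I, L and M, the deepest red is CYP2S1 with M at 30 µg/mL (0.96) and the deepest blue CYP4F3 in the same column (-0.74).

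CYP2S1 showed the largest change of any member in the 24 comparisons with control. In the controls it ran from 6.92 to 7.22 with a median of 7.09. With M at 30 µg/mL the 5 arrays read 7.69, 7.71, 8.87, 8.17 and 7.73, all above the highest control, and the replicates 3 and 4 that stood apart were the highest. CYP2S1 rose by 0.96 ± 0.11 (1.95-fold, adjusted p = 1.12e-10, limma), and by 0.64 without the 9 arrays (adjusted p = 4.52e-09). With M at 0.3 µg/mL it read 6.94, 7.32, 7.25 and 7.27 and at 3 µg/mL 7.36, 7.06, 7.45 and 7.49, so both groups overlapped the controls. Neither change passed, with 0.12 ± 0.12 (adjusted p = 1) and 0.27 ± 0.12 (adjusted p = 0.418), although the second did without the 9 arrays (0.27, adjusted p = 0.0191), none of which is in that group. Between 0.3 and 30 µg/mL of M the gene rose by 0.84 ± 0.13 (adjusted p = 5.16e-06), with groups that did not overlap. A further probe of CYP2S1, close to the array median with a level of 6.64, changed by 0.15 with M at 30 µg/mL, and the mean of both probes by 0.55 (adjusted p = 1.36e-11).

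CYP2S1 also rose with L. At 0.3 µg/mL its 4 arrays read 7.40, 7.51, 7.79 and 7.41, above every control, and the change was 0.45 ± 0.12 (adjusted p = 0.00419, limma). Without replicate 3 of the groups at the lower concentrations the change was 0.36 (adjusted p = 0.0823). At 30 µg/mL the arrays read 7.98, 7.20, 7.24, 7.46 and 7.32, and the lowest reached into the range of the controls. The change of 0.37 ± 0.11 (adjusted p = 0.0263) rested on single arrays: without replicate 1 it was 0.23 (adjusted p = 0.367) and without replicate 4 it was 0.36 (adjusted p = 0.0555). With the mean of both probes the rises were 0.27 and 0.21 (adjusted p = 0.00154 and 0.0176). At 3 µg/mL CYP2S1 differed from control by 0.12 ± 0.11, within the spread. With B, D and I at any concentration its change lay between -0.12 and -0.01. With A at 30 µg/mL 4 arrays read 7.00 to 7.18 and replicate 3, which stood apart, read 8.01.

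CYP4F3, an omega-hydroxylase that inactivates leukotriene B4, went the other way in the same exposures. Its controls ran from 7.65 to 8.24 with a median of 7.86. With M at 30 µg/mL the arrays read 7.14, 7.06, 6.96, 7.31 and 7.20, all below the lowest control. CYP4F3 fell by 0.74 ± 0.09 (1.68-fold, adjusted p = 1.47e-09, limma), and by 0.74 as well without the 9 arrays (adjusted p = 1.63e-07). With M at 3 µg/mL the arrays read 7.47, 7.41, 7.40 and 7.35, again all below the controls, a fall of 0.47 ± 0.10 (adjusted p = 0.00397), which did not pass without replicate 4 of the groups at the lower concentrations (-0.45, adjusted p = 0.0514). With M at 0.3 µg/mL the arrays read 7.87, 7.42, 7.79 and 7.62, and the change of -0.21 ± 0.10 did not pass (adjusted p = 0.956). Within M, from 0.3 to 30 µg/mL, CYP4F3 fell by 0.54 ± 0.11 (adjusted p = 0.00056).

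With L, CYP4F3 was low at every concentration. Its arrays read 7.32, 7.25, 7.38 and 7.35 at 0.3 µg/mL, then 7.27, 7.31, 7.50, 7.58 and 7.54 at 3 µg/mL, and 7.05, 7.52, 7.51, 7.41 and 7.44 at 30 µg/mL. All 14 lay below the lowest control. The falls were 0.55 ± 0.10 (adjusted p = 1.68e-05, limma), 0.44 ± 0.09 (adjusted p = 0.0011) and 0.49 ± 0.09 (adjusted p = 0.000165), and each passed in all settings that left out a control or a replicate. When L at 30 µg/mL and control were fitted alone, without the other groups, the fall at 30 µg/mL did not pass. The difference between 30 and 0.3 µg/mL of L did not pass (0.06 ± 0.11, adjusted p = 1). With H the gene read 8.20, 8.21, 8.23 and 7.95 at 0.3 µg/mL and 7.52, 7.47, 8.10, 7.66 and 7.52 at 30 µg/mL, a fall of 0.49 ± 0.11 between the concentrations (adjusted p = 0.0013), while neither group passed against control.

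The results on CYP4F3 rest on its brightest probe. Dimmer probes of the gene, with levels of 6.81 and 6.55, changed by -0.09 and -0.01 with M at 30 µg/mL. With the mean of all its probes in place of the brightest, CYP4F3 changed by -0.28 with M at 30 µg/mL (adjusted p = 2.3e-07, limma) and by -0.20, -0.17 and -0.18 with L at 0.3, 3 and 30 µg/mL, all past the test. Not past it on that scale were M at 3 µg/mL (-0.16, adjusted p = 0.0553) and the contrast of H (-0.14, adjusted p = 0.0562).

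**Figure D3:**
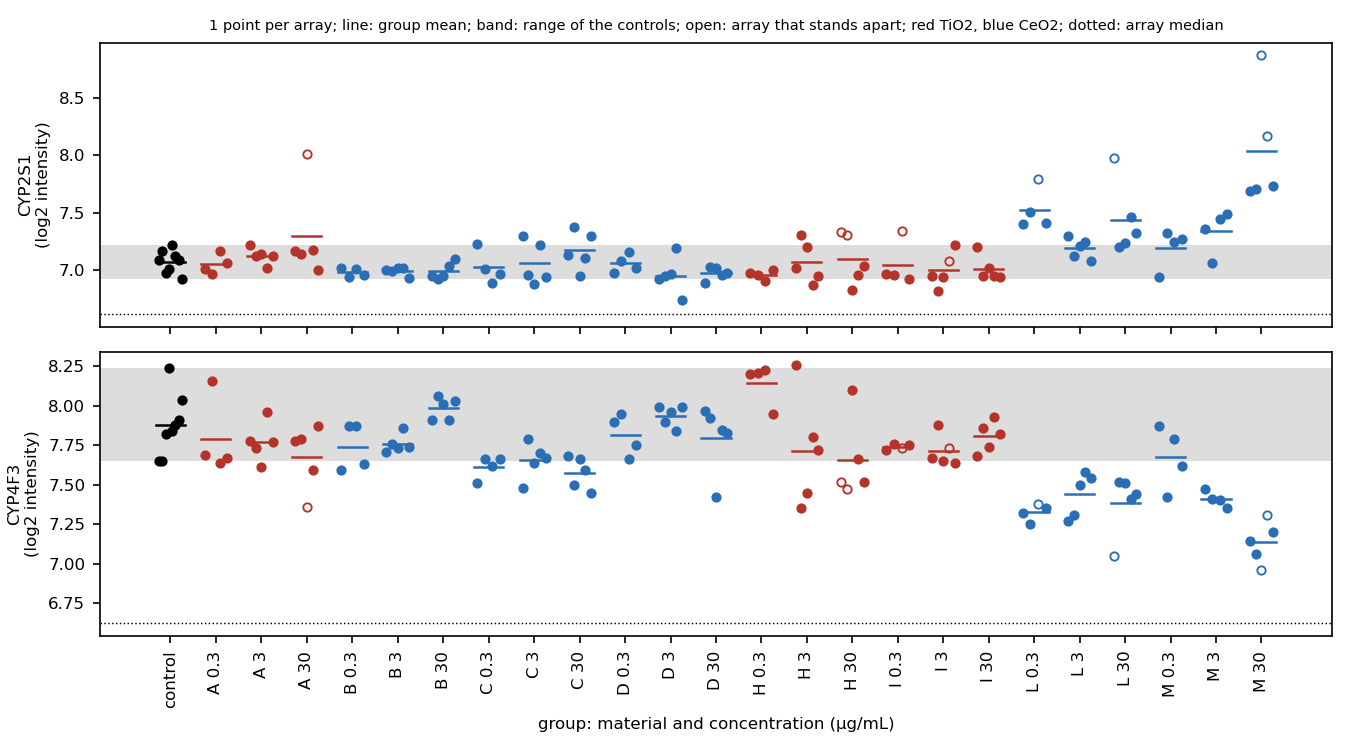
Log2 intensity of CYP2S1 (top) and CYP4F3 (bottom) on each array (points) by group (x axis), with group means as lines, the range of the 8 controls as a grey band and open points for the 9 arrays that stood apart. With M at 30 µg/mL all CYP2S1 points lie above the band and all CYP4F3 points below it, and the CYP4F3 points of L lie below it at each concentration.

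CYP27A1 rose with L. Its controls ran from 10.14 to 10.57 with a median of 10.48. With L the arrays read 11.22, 11.55, 10.90 and 10.98 at 0.3 µg/mL, then 11.41, 11.10, 11.28, 10.77 and 10.72 at 3 µg/mL, and 10.71, 10.62, 10.81, 11.21 and 10.69 at 30 µg/mL. All lay above the highest control, and the mean was highest at the lowest concentration. The rises were 0.73 ± 0.13 (1.65-fold, adjusted p = 1.8e-05, limma), 0.62 ± 0.12 (adjusted p = 0.000415) and 0.37 ± 0.12 (adjusted p = 0.0439). The last did not pass when any of 7 arrays was left out: control replicates 1 (0.36, adjusted p = 0.066), 3 (0.33, 0.109), 4 (0.36, 0.0713) or 7 (0.37, 0.0574), or L replicates 1 (0.40, 0.0888), 3 (0.37, 0.0786) or 4 (0.27, 0.242).

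With M at 30 µg/mL CYP27A1 read 10.71, 10.64, 10.89, 10.95 and 10.82, above every control, a rise of 0.37 ± 0.12 (adjusted p = 0.0244, limma). It was 0.29 without the 9 arrays (adjusted p = 0.241), 0.32 without control replicate 3 (adjusted p = 0.0628), 0.34 without M replicate 3 (adjusted p = 0.0944) and 0.33 without M replicate 4 (adjusted p = 0.0936). With H at 30 µg/mL the change was 0.33 (adjusted p = 0.0653), and 0.52 without the 9 arrays (adjusted p = 0.0203). H at 3 µg/mL, which holds none of the 9 arrays, had a change of 0.41 that did not pass with all arrays (adjusted p = 0.0599) and did without them (adjusted p = 0.0228).

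CYP2W1 rose in 7 comparisons, the most of any member. Its controls ran from 7.08 to 7.84 with a median of 7.37, a range that overlapped every exposed group in which it rose. With I the arrays read 7.87, 7.89, 8.14 and 7.78 at 0.3 µg/mL, 7.86, 7.77, 7.71, 8.05 and 8.26 at 3 µg/mL, and 8.21, 7.87, 7.65, 7.64 and 7.77 at 30 µg/mL. All 14 were above the control mean. The rises were 0.51 ± 0.13 (adjusted p = 0.00652, limma), 0.52 ± 0.12 (adjusted p = 0.0019) and 0.41 ± 0.12 (adjusted p = 0.0261). The first was 0.43 without replicate 3 of the lower groups (adjusted p = 0.124). The last did not pass without control replicate 3 (0.37, adjusted p = 0.0707) or 4 (0.40, 0.0517), or I replicate 1 (0.32, 0.174) or 2 (0.40, 0.0648).

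With L at 0.3 µg/mL CYP2W1 read 7.90, 7.83, 8.20 and 7.98, and it rose by 0.56 ± 0.13 (adjusted p = 0.000673, limma). At 30 µg/mL of L it read 8.34, 7.86, 7.79, 7.75 and 7.46 and rose by 0.43 ± 0.12 (adjusted p = 0.0133), which was 0.30 without replicate 1 (adjusted p = 0.224). With A at 30 µg/mL it read 7.97, 7.60, 8.33, 7.68 and 7.74 and rose by 0.45 ± 0.12 (adjusted p = 0.00588), or 0.34 without replicate 3 (adjusted p = 0.111). Replicate 1 of L and replicate 3 of A are among the 9 arrays that stood apart. With all 9 left out A at 30 µg/mL passed (0.34, adjusted p = 0.0391) and L at 30 µg/mL did not (0.30, adjusted p = 0.0924). With H at 30 µg/mL the arrays read 7.82, 8.22, 7.56, 7.69 and 7.49, and the rise of 0.34 ± 0.12 (adjusted p = 0.0495) was 0.17 without the 9 arrays (adjusted p = 0.548). It did not pass without H replicate 1 (0.33, adjusted p = 0.137), 2 (0.23, 0.38) or 4 (0.36, 0.051), or without control replicate 1 (0.33, 0.0705), 3 (0.30, 0.117), 4 (0.32, 0.0866), 5 (0.33, 0.074), 6 (0.35, 0.0525) or 7 (0.34, 0.0678).

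With all arrays CYP21A2 passed with the TiO2 materials I and H alone. Its controls ran from 7.04 to 7.74 with a median of 7.39. With I the arrays read 7.89, 7.89, 7.94, 7.61 and 7.90 at 3 µg/mL and 8.02, 7.97, 7.93, 7.74 and 7.91 at 30 µg/mL, the latter all at or above the highest control. The rises were 0.45 ± 0.10 (adjusted p = 0.00212, limma) and 0.52 ± 0.10 (adjusted p = 0.000766). With I at 0.3 µg/mL it read 7.72, 7.86, 7.05 and 7.84, where the low array is the one that stood apart; the change of 0.23 (adjusted p = 0.272) was 0.41 without the 9 arrays (adjusted p = 0.0101). With H at 30 µg/mL it read 7.87, 7.62, 7.75, 7.77 and 7.59, a rise of 0.33 ± 0.10 (adjusted p = 0.0311) that was 0.31 without the 9 arrays (adjusted p = 0.0866). That rise did not pass without control replicate 3 (0.32, adjusted p = 0.051), 4 (0.28, 0.093) or 5 (0.29, 0.0686), or H replicate 1 (0.29, 0.136), 2 (0.35, 0.0653) or 4 (0.31, 0.0524). With the CeO2 material L at 3 and 30 µg/mL the changes of 0.28 and 0.23 did not pass (adjusted p = 0.129 and 0.21, limma). Without the 9 arrays both did (0.28 and 0.33, adjusted p = 0.0327 and 0.0237), as did H at 3 µg/mL (0.33, adjusted p = 0.0143). The TiO2 material A at 30 µg/mL had a mean of 7.53 and did not pass. Under M at 30 µg/mL CYP21A2 read 7.04 to 7.29, and its change of -0.24 did not pass.

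CYP24A1 had the widest spread in the controls, from 7.71 to 8.60 with a median of 8.16 (SD 0.31), and passed in 0 of 24 comparisons with all arrays by limma (6 at an unadjusted p under 0.05). Its highest group mean was 8.65 with A at 0.3 µg/mL, where the arrays read 8.65, 8.43, 8.73 and 8.77, and its lowest 7.73 with I at 0.3 µg/mL. On all 9 arrays that stood apart it lay below the other arrays of its group, by a median of 0.82. With those arrays left out it rose with A at 0.3 µg/mL (0.50, adjusted p = 0.0254, limma) and 3 µg/mL (0.43, adjusted p = 0.00835), L at 0.3 µg/mL (0.52, adjusted p = 0.00389) and M at 30 µg/mL (0.63, adjusted p = 0.00122). With all arrays these changes were 0.50, 0.43, 0.26 and 0.31.

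**Figure D4:**
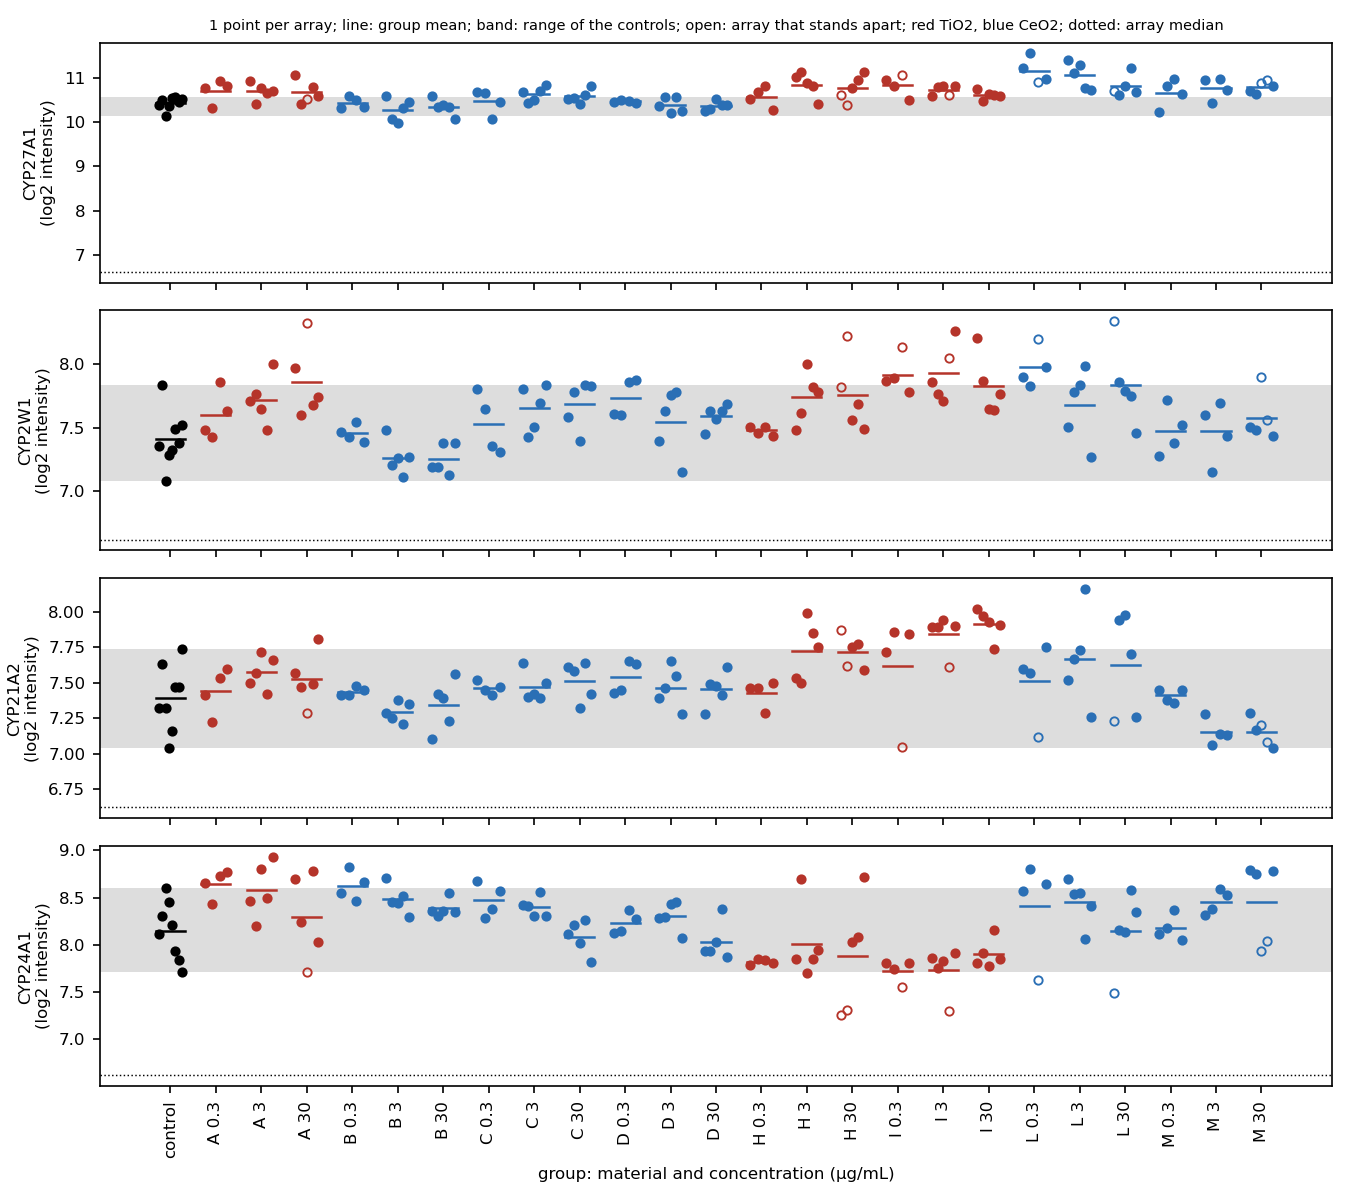
Log2 intensity of CYP27A1, CYP2W1, CYP21A2 and CYP24A1 on each array by group, drawn as for CYP2S1 and CYP4F3. CYP27A1 lies above the control band on every array of L, CYP21A2 has its highest group mean with I, and the open points of CYP24A1 lie below the other arrays of their groups.

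CYP4F11, which hydroxylates long-chain fatty acids, rose with L at 0.3 µg/mL and M at 30 µg/mL. Its controls ran from 7.08 to 7.43 with a median of 7.25. With L at 0.3 µg/mL it read 7.55, 7.51, 7.52 and 7.61, above every control, a rise of 0.30 ± 0.07 (adjusted p = 0.00217, limma). In M at 30 µg/mL it read 7.45, 7.45, 7.69, 7.97 and 7.39, and the arrays that stood apart were the highest. That rise was 0.34 ± 0.07 (adjusted p = 0.000127), or 0.18 without the 9 arrays (adjusted p = 0.0763). CYP4F12 rose by 0.28 ± 0.09 with L at 0.3 µg/mL (adjusted p = 0.0226), where its arrays of 8.05 to 8.28 lay above the controls of 7.72 to 8.04. It did not pass there without replicate 2 (0.27, adjusted p = 0.0753) or 3 (0.24, 0.123) of the lower groups.

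CYP20A1 fell by 0.34 ± 0.11 with L at 0.3 µg/mL (adjusted p = 0.0209, limma), from controls of 8.50 to 9.02 to arrays of 8.30, 8.30, 8.43 and 8.22. The groups did not overlap, but the call was lost without control replicate 4 (-0.29, adjusted p = 0.0657) or replicate 1 (-0.34, 0.0584), 2 (-0.34, 0.0644) or 4 (-0.31, 0.0701) of the lower groups. A further CYP20A1 probe with a level of 8.17 changed by -0.19 in that exposure, and the mean of all 3 probes by -0.17 (adjusted p = 0.0224). For M at 30 µg/mL, where the gene did not pass, the same probe disagreed with the brightest one, with changes of -0.23 and 0.14. CYP2J2 fell by 0.21 ± 0.06 with I at 3 µg/mL (adjusted p = 0.0143), which did not pass without control replicate 4 (-0.18, 0.0533) or replicate 2 (-0.19, 0.0615) or 4 (-0.17, 0.145) of the lower groups. Between 0.3 and 30 µg/mL of H it fell by 0.27 ± 0.07 (adjusted p = 0.00688), and by 0.19 without H replicate 2 at 30 µg/mL (adjusted p = 0.114), 0.24 without replicate 1 (0.068) and 0.23 without replicate 4 (0.0549) of the lower groups.

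Of the 44 members near the median, 7 passed against control at least once in 24 comparisons, in 8 combinations. Among all 12658 genes as near the median, 15.9% passed at least once and 1.26% of their combinations with an exposure passed. With L at 0.3 µg/mL CYP51A1 rose by 0.29 ± 0.07 (adjusted p = 0.00162, limma), reading 7.13, 7.42, 6.98 and 7.30 against controls of 6.73 to 7.05, while CYP7A1 fell by 0.11 ± 0.03 (adjusted p = 0.00337). Without replicate 2 of the lower groups the CYP51A1 change was 0.22 (adjusted p = 0.0713), and without replicate 3 the CYP7A1 change was -0.08 (adjusted p = 0.0563). The cholesterol side-chain cleavage enzyme CYP11A1 rose by 0.20 ± 0.06 with I at 3 µg/mL (adjusted p = 0.0144), or by 0.16 without replicate 4 (adjusted p = 0.169) and 0.18 without replicate 5 (0.0573) of the lower groups. CYP2U1, a fatty acid hydroxylase, fell by 0.15 ± 0.05 with I at 3 µg/mL (adjusted p = 0.0317) and by 0.17 ± 0.05 with M at 30 µg/mL (adjusted p = 0.00523). Control was its highest group, and its changes in all 24 comparisons lay between -0.18 and -0.04. The falls are thus not particular to I and M. At 30 µg/mL CYP2U1 did not differ among the 8 materials (limma F test, adjusted p = 0.393). CYP4V2, a fatty acid hydroxylase linked to a retinal dystrophy, fell by 0.18 ± 0.06 with M at 30 µg/mL (adjusted p = 0.0214). The calls of CYP2U1 and CYP4V2 with M did not pass without the 9 arrays (adjusted p = 0.0669 and 0.0544), nor did that of CYP2U1 with I (-0.08, adjusted p = 0.327). With the mean of its probes CYP2U1 changed by -0.10 with M (adjusted p = 0.0255) and by -0.08 with I (adjusted p = 0.0997). The call with I was also lost without control replicate 2 (-0.12, 0.114) or 4 (-0.14, 0.0707) or replicate 1 (-0.16, 0.0586) or 4 (-0.08, 0.45) of the lower groups. That of CYP4V2 was lost without M replicate 4 (-0.18, 0.0607) or 5 (-0.16, 0.067).

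Differences among the 8 materials at 30 µg/mL were tested with no control arrays. By limma's F test 13 of 54 members differed (adjusted p under 0.05), against 37.6% of all genes: the 10 members above the margin, which CYP2S1 passed through M at 30 µg/mL itself, and CYP4V2, CYP51A1 and CYP2R1. The 37.6% covers genes at every level, so it sets no background for the 10 members above the margin. The F value was highest for CYP2S1 (16.7, adjusted p = 1.2e-11) and CYP4F3 (13.5, adjusted p = 5.92e-10). Group means of CYP4F3 at 30 µg/mL went from 7.14 ± 0.13 (SD, n = 5) with M to 7.98 ± 0.07 (SD, n = 5) with B, which are sold under the same vendor name. Those of CYP2S1 were 8.03 ± 0.51 with M and 6.99 ± 0.07 with B (SD, n = 5 each).

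The change from 0.3 to 30 µg/mL differed among the 8 materials for 4 of 54 members, against 5.88% of all genes. They were CYP4F3 (limma F test, adjusted p = 0.00116), CYP2S1 (0.00364), CYP4Z1 (0.044) and CYP4F11 (0.0488). Without the 9 arrays the F tests of CYP4Z1 (adjusted p = 0.163) and CYP4F11 (0.137) did not pass. For CYP2S1 the dose contrast was 0.84 ± 0.13 with M and between -0.09 and 0.25 with the other materials. For CYP4F3 it was -0.54 with M and -0.49 with H, each ± 0.11, and between -0.11 and 0.24 with the other 6. Material by material, 4 members passed with M (7.61% of all genes) and 2 with H (8%), the pair being CYP4F3 and CYP2J2. With M, CYP4F11 rose by 0.33 ± 0.08 (adjusted p = 0.00516) and CYP4Z1, near the median at 6.54, by 0.18 ± 0.05 (adjusted p = 0.0116). Both lost the call without the 9 arrays (0.17, adjusted p = 0.28, and 0.16, adjusted p = 0.122), and CYP4Z1 also with the mean of its probes (0.03, adjusted p = 0.22). The first was also lost without M replicate 4 at 30 µg/mL (0.24, 0.0798) or replicate 1 of the lower groups (0.30, 0.0686), and the second without M replicate 3 at 30 µg/mL (0.15, 0.113) or replicate 2 (0.17, 0.0541) or 3 (0.16, 0.0605) of the lower groups. With A, B, C, D, I and L the count was 0 by limma, with 1 to 6 members at an unadjusted p under 0.05, and 0% to 0.0249% of all genes passed.

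TiO2 and CeO2 were compared on the material means at 30 µg/mL (3 against 5). No member passed (limma, 0% of all genes), and the smallest adjusted p was 0.653. At an unadjusted p under 0.05 there were 4 members and 6.84% of all genes. CYP21A2 averaged 7.72 in the TiO2 materials and 7.42 in the CeO2 materials, a difference of 0.30 ± 0.12 (adjusted p = 0.715). CYP2J2 averaged 7.37 and 7.54 (adjusted p = 0.664).

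Leaving out the 9 arrays changed the calls in both directions. Of the 35 combinations that passed against control, 26 also passed without those arrays (74.3%, against 66.3% of the calls of all genes) and 9 did not. A further 25 passed without them alone, which is 49% of the members' calls in that fit, against 48.7% for all genes, of whose combinations 4.49% passed there. At 3 µg/mL the count over the 8 materials went from 8 to 18, and the share of all combinations of gene and exposure from 2.31% to 4.94%. All 9 arrays lay above the mean of their group's other arrays for CYP2S1 (median difference 0.39), CYP2W1 (0.30) and CYP4F12 (0.32), and below it for CYP24A1. What sets these arrays apart was not tested.

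**Figure D5:**
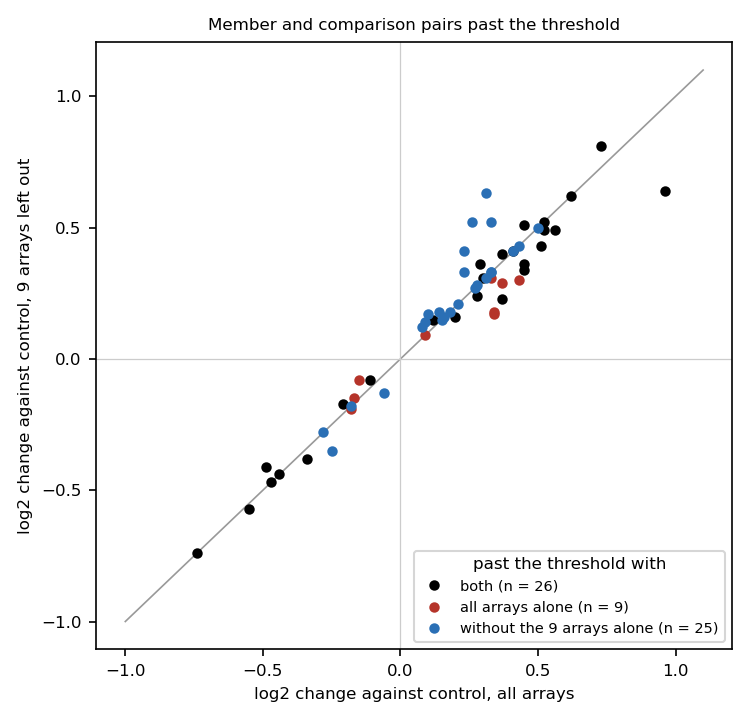
Log2 change against control with all arrays (x axis) and without the 9 arrays that stood apart (y axis) for each combination of member and exposure that passed with either set, with the line of equal change. The 26 black points passed with both, the 9 red ones with all arrays alone and the 25 blue ones without the 9 arrays alone, and every point keeps its sign.

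Genes that work with the P450 enzymes were read from lists chosen with earlier results of these data known, so their counts are a description. Of 8 electron transfer partners measured, 1 rose and 2 fell with M at 30 µg/mL, where 17.4% of all genes passed, and the same counts held for H, where 9.46% did. POR rose with I at 0.3 (0.68 ± 0.20, adjusted p = 0.0236, limma) and 3 µg/mL (0.78 ± 0.19, adjusted p = 0.0031) and with H at 30 µg/mL (0.62 ± 0.19, adjusted p = 0.0194). CYB5A, cytochrome b5, fell by 0.57 ± 0.10 with M at 30 µg/mL (adjusted p = 1.35e-05). The median change of the list with M at 30 µg/mL was 0.03, and that of all genes 0.01.

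Of 19 transcription factors that act on P450 genes, 4 rose and 1 fell with M and with H at 30 µg/mL (17.4% and 9.46% of all genes). CEBPA, a regulator of liver genes, rose in 11 of 24 comparisons, with 1.33 ± 0.18 for L at 0.3 µg/mL (adjusted p = 5.93e-08, limma). SREBF1 rose in 8 comparisons and the orphan receptor ESRRA in 7, where 3.48% of all combinations of gene and exposure passed. AHR itself rose by 0.63 ± 0.16 with H at 30 µg/mL (adjusted p = 0.00659). Of 5 targets of that receptor outside the family, 0 rose and TIPARP alone fell. It fell by 0.29 ± 0.09 with M at 30 µg/mL (adjusted p = 0.0213, limma), and the list had 0 calls in the other 23 comparisons. Only 2 of the 5 targets lay above the margin used for the P450 genes, and the others lay near the array median. Among all genes as near the median, 1.26% of combinations with an exposure passed. Whether these dim targets were above background, and whether the receptor responded, was not tested.

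Of 11 genes of heme synthesis and breakdown, HMOX1, the inducible heme oxygenase, rose by 0.38 ± 0.12 and CPOX fell by 0.54 ± 0.13 with M at 30 µg/mL (adjusted p = 0.015 and 0.00121, limma), where 17.4% of all genes passed. With H at 30 µg/mL (9.46%) UROD of heme synthesis fell by 0.40 ± 0.12 (adjusted p = 0.0208) and BLVRA, a biliverdin reductase, by 0.58 ± 0.18 (adjusted p = 0.0283). HMOX2 rose by 0.21 ± 0.05 with A at 30 µg/mL (adjusted p = 0.00498, with 8.51% of all genes). Of 17 genes of sterol synthesis and uptake beside CYP51A1, 5 rose and 0 fell with L at 0.3 µg/mL (12.2% of all genes), and the list's median change was 0.02. At 30 µg/mL of M 4 rose and 4 fell (17.4%). Those that fell were HMGCS1, IDI1, SC5D and MSMO1, the last by the most (-0.75 ± 0.19, adjusted p = 0.00314, limma). LSS, which makes lanosterol, the substrate of CYP51A1, rose in 6 of 24 comparisons, as did DHCR7, which acts late in cholesterol synthesis. Of all combinations of gene and exposure 3.48% passed.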

How the data were processed

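The deposited values are linear probe intensity, which the authors computed in R 2.14.0 using beadarray 2.4.1, according to the submitters' processing notes. The sources used here do not name the background correction, the normalization or a genome build. Sorted values of all arrays coincide (range 52.5 to 18529), as quantile normalization leaves them. Of 48107 probes 30113 have 1 symbol in the platform annotation; the brightest probe over all arrays stands for each of 20046 genes (83 probes for the 54 members, 34 of which have 1 probe). Of 120 arrays, 1 had conflicting dose labels and entered no comparison. No arrays were identical (0 pairs): over pairs, the root mean square difference of log2 values was 0.0942 at least and 0.204 at the median.

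The log2 values were fitted with limma 3.58.1 in R 4.3.3 (lmFit, eBayes, 1 fit over 25 groups, no covariates, no filter), with Benjamini-Hochberg adjustment over all genes within each comparison and a threshold of 0.05. Run on simulated counterparts of A at 30 µg/mL, it called 90 of 100 genes changed by 0.5 and 100 of 100 changed by 1, with 6 false calls. The F test of the dose contrast called 13 unchanged genes there. The simulated noise was independent between genes and arrays and held no arrays that stand apart. Recovery in the real arrays can therefore be lower. Members described singly are a list of well-known enzymes, those above the margin and those that passed. Members, lists and rules were chosen with earlier results of these data known. Alternatives covered the choice of probe, a filter on dim genes, centring, quantile normalization, blocks, the prior, a fold minimum, separate fits and left-out arrays. Tables and figures used Python 3.11.15 with pandas 2.3.3 and matplotlib 3.10.9.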

Additional observations from a re-analysis of the deposited data

Results flagged for a closer look

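In groups of 5 to 8 arrays, 10 of 90 sets (10 members in the controls and the 8 groups at 30 µg/mL) held an array far from the others by Dixon's test, where chance gives about 1 in 20, and 5 of the 10 lay on the arrays that stood apart. These 5 were CYP2S1 at 8.01 and CYP4F11 at 7.63 in A replicate 3, CYP4F12 at 8.28 and CYP4F3 at 7.05 in L replicate 1, and CYP2W1 at 7.90 in M replicate 3, all at 30 µg/mL. The other 5 were CYP27A1 at 10.14 in control replicate 3, CYP20A1 at 9.02 in control replicate 4, CYP20A1 at 8.17 in I replicate 1, CYP24A1 at 8.55 in B replicate 4 and CYP4F3 at 7.42 in D replicate 3, the last 3 at 30 µg/mL. Their part in the results was not tested beyond the values given without them.

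The change from 0.3 to 30 µg/mL differed among the 8 materials, by limma's F test on that contrast, for CYP4F3 (adjusted p = 0.00116), CYP2S1 (0.00364), CYP4Z1 (0.044) and CYP4F11 (0.0488). By the same F test CYP4Z1 and CYP4F11 did not pass with the replicate block (adjusted p = 0.052 and 0.0522). Nor did they with blocks of 12 arrays in order of deposit (0.052 and 0.231) or without the 9 arrays that stood apart (0.163 and 0.137).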

How the results depend on the processing

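No direction reversed under any alternative that was run. Summed over the 8 materials, 11, 8 and 16 calls of members at 0.3, 3 and 30 µg/mL became 1, 1 and 2 when a change of at least 1.5-fold was also asked for, and the 6 calls of the dose contrast became 1. At 3 µg/mL there were 13 with blocks of 12 arrays in order of deposit, 4 with separate fits of the 2 groups and 18 without the 9 arrays that stood apart; at 30 µg/mL separate fits gave 5. At 30 µg/mL the 2 calls with H became 1 when every probe was tested, with the replicate block and with blocks of 12 arrays, and 0 with separate fits or the fold minimum. Without the 9 arrays both were lost and 1 other, CYP27A1, passed, where 3.94% of all genes did. The 2 calls with I became 4 with the replicate block, 5 without the 9 arrays (10.2% of all genes) and 0 with the fold minimum. The 5 with L became 3 with the replicate block, and 0 with separate fits or the fold minimum. Without the 9 arrays 5 passed with L (6.63% of all genes), of which 3 were among the first 5. The 6 with M became 3 with separate fits and 2 with the fold minimum. Without the 9 arrays 4 passed with M (8.09% of all genes), of which 2 (CYP2S1 and CYP4F3) were among the 6. The 1 with A became 0 with separate fits or the fold minimum and 2 without the 9 arrays (9.69% of all genes). Without those arrays the 0 with C became 1 (1.46% of all genes). For the other alternatives and for single left-out arrays the share of all genes is not given. Those counts are therefore no result about the family. Median centring and quantile normalization moved no value by over 0.0244, since the arrays already share their sorted values, so they test nothing here. Of 41 single calls the mean of a gene's probes ended 5, testing every probe 2 and the trend and robust prior 1. Separate fits ended 17 of 35. Of 58 results that include the F tests, the replicate block ended 8 and blocks of 12 arrays 6.

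With 1 array or replicate number left out, totals ran from 7 to 13 at 0.3 µg/mL, 5 to 10 at 3 µg/mL and 10 to 18 at 30 µg/mL (10 without control replicate 3), with A from 0 to 2, with H from 0 to 4, with I from 1 to 2 and with L from 1 to 6 (1 without L replicate 1). Members whose dose contrast differed among materials ran from 1 to 5. Samples share only a replicate number: of 1320 pairs of arrays with the same number in different groups, 34.2% had correlated deviations over 0.1 (median 0.01). For pairs with different numbers the median was 0, and their share over 0.1 was not counted. Whether the 44 members near the array median were above background was not tested, which limits the results on them.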

Other observations

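The array of M whose title gives the low dose while its characteristic gives 3 µg/mL was placed in no group. It read 7.68 for CYP2S1, above the controls (6.92 to 7.22), 7.46 for CYP4F3, below the controls (7.65 to 8.24), 11.02 for CYP27A1, above the controls (10.14 to 10.57), and 7.65 for CYP4F11, above the controls (7.08 to 7.43). It read 7.61 for CYP2W1, 7.46 for CYP21A2 and 8.38 for CYP24A1, all within the range of the controls.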
